A study of Mus musculus with 8 samples.

Results

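RNA of co-cultured 3T3-L1 pre-adipocytes labelled cortisol was compared with that labelled untreated, both taken at 48 h. These are 2 of the 8 arrays of the series, 1 array on each side, chosen by their labels. 3T3-L1 is a mouse fibroblast line that can be turned into adipocytes, and it shared a transwell culture with RAW 264.7, a mouse macrophage line, so that the cells exchanged medium without touching. The untreated co-culture received no hormone, the cortisol co-culture 100 µM cortisol, the serotonin co-culture 100 µM serotonin, and the cortisol-serotonin co-culture 100 µM of each by the sample labels. Both established cell lines came from a national cell repository, and nothing in the sources used here describes a genetic modification of either. Each array carried the cells' RNA in Cy5 and a common reference in Cy3. The methods describe this reference as cRNA pooled from untreated cells of both lines grown apart, and the series text describes it as a mixture of all samples. It cancels in every difference between arrays given here.

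Cortisol is a glucocorticoid. It enters cells and binds the glucocorticoid receptor, which then activates genes such as Fkbp5, Tsc22d3, Per1 and Zbtb16 and lowers the output of many cytokine genes. In pre-adipocytes glucocorticoids are part of the standard mixture that starts differentiation into fat cells.

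Of 32395 genes and unmatched probe names on the array, 13718 were measured, that is, had a probe well above background in both channels on both arrays. For another 1130 the Cy5 signal was well above background only on the array labelled cortisol and for 758 only on the untreated array, 15257 were dim on both, 1206 had Cy5 signal on both but failed the filter, and 326 had no spot free of outlier marks. A difference below is the log2 ratio of Cy5 to Cy3 on the array labelled cortisol minus that on the untreated array, and its error combines the errors that the scanner software gives each ratio. With 1 array on each side no test of a single difference was possible, the replicate error of cells is unknown, and a 2-fold difference (1 on the log2 scale) is a description of these 2 arrays. With the cortisol label no established glucocorticoid target reached 2-fold above the untreated array, while several did with the serotonin and cortisol-serotonin labels, as given with their values further on, so every direction is that of the arrays as labelled. In bulk RNA, fewer cells of a type and less RNA per cell cannot be told apart.

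On the array labelled cortisol 58 genes (0.423% of those measured) lay 2-fold or more above the untreated array and 168 (1.22%) 2-fold or more below it, 1.65% in all. The cytokine and growth factor genes Csf3, Csf2 and Il11 were among the highest, and tissue factor (F3), connective tissue growth factor (Ccn2), the feedback inhibitor Errfi1 and the splicing factor Srsf7 were among the lowest. The differences ran from -2.02 to 2.10, with a median of 0.0096 over all genes and the 5th and 95th percentiles at -0.67 and 0.55. The median error of a difference was 0.30. Of the 58 higher genes 57, and of the 168 lower genes 166, differed by more than 2 errors. The 2-fold line nearly fixes these counts in advance, so they lend the calls no support. The calls were 74.3% lower. Using Cy5 signals without the reference gave 64.2%. Centring each array on its median instead of loess gave 0.194% and shifted all genes to a median of 0.60, and 71.0% of calls were lower once that shift was taken off. List medians below 0 other than that of the SR splicing factors turn positive with that centring before the shift is taken off. There were 18 genes between 1 and 1.1 and 35 between 0.9 and 1, and the corresponding counts on the lower side were 58 and 86, so the counts depend on where the line is drawn.

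**Figure D1:**
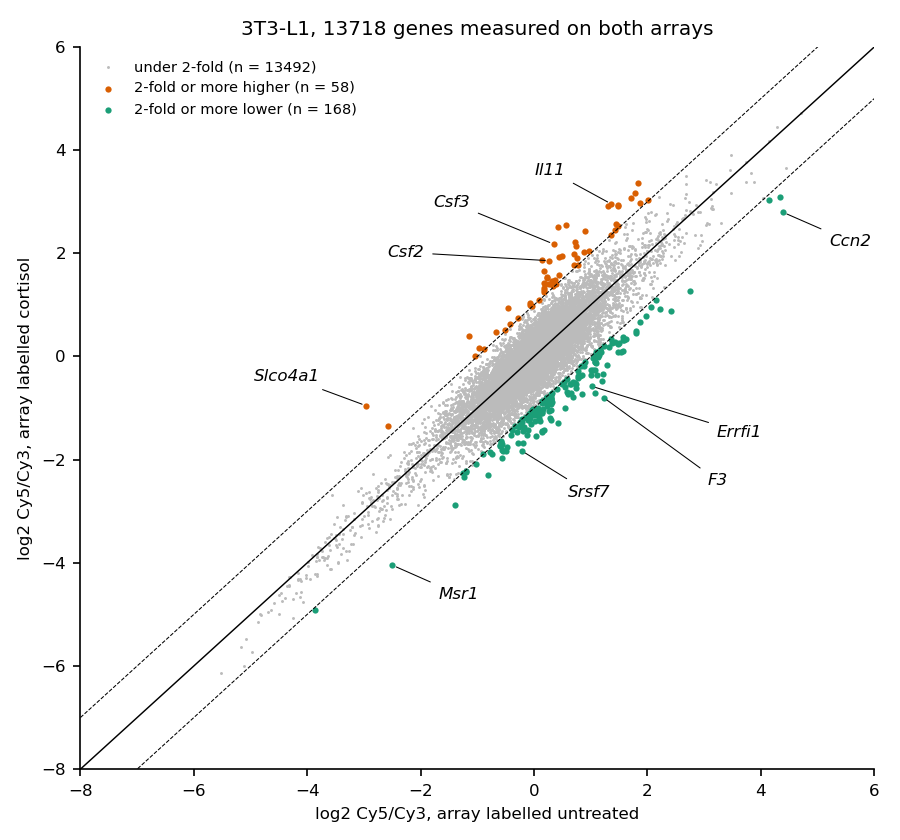
Log2 ratio of Cy5 to Cy3 for 13718 genes on the array labelled untreated (horizontal) and on the array labelled cortisol (vertical), 1 array each, both axes on the log2 scale. The solid line marks equal ratios and the dashed lines a 2-fold difference. The 58 higher genes lie above the upper dashed line and the 168 lower genes below the lower one.

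Among ligands, the colony-stimulating factor gene Csf2, whose product drives granulocyte and macrophage growth, had log2 ratios of 0.27 on the untreated array, -0.64 on that labelled serotonin, -0.47 on that labelled cortisol-serotonin and 1.86 on that labelled cortisol. It stood alone at the top on the array labelled cortisol, 1.59 above the untreated array (3.00-fold, error 0.11). This gene has 10 spots on the array and their differences had an SD of 0.10, which measures spots and not cells. Csf3, which encodes the granulocyte factor G-CSF, had log2 ratios of 0.34 (untreated), 1.13 (serotonin), 1.42 (cortisol-serotonin) and 2.18 (cortisol), a difference of 1.84 (3.57-fold, error 0.38). Here all hormone arrays lay above the untreated array, and the array labelled cortisol lay highest. Il11, an IL-6 family cytokine, had log2 ratios of 1.36, 1.55, 1.39 and 2.96 on the arrays in the same order, a difference of 1.59 (3.02-fold, error 0.45). For Il11 the other 3 arrays lay within 0.19 of each other, while for Csf2 the untreated array lay above those labelled serotonin and cortisol-serotonin, 0.91 above the former. Il1a, an inflammatory cytokine of the IL-1 family, showed the same order with a smaller step, from 0.38 on the untreated array to 1.48 on that labelled cortisol, with -0.09 on that labelled serotonin and 0.26 on that labelled cortisol-serotonin.

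Of 21 genes listed as the colony-stimulating factors, the IL-6 family and their receptors, 20 were measured, 3 were at least 2-fold higher (Csf2, Csf3 and Il11) and none lower, beside 0.423% and 1.22% of all genes. The list had a median of 0.24, against 0.0096 for all genes. Il6 differed by 0.68 (error 0.30) and Lif by 0.91 (error 0.48), and Stat3, the signal transducer of these receptors, by 0.13 (probes at -0.06 and 0.33). Csf1, the macrophage growth factor, differed by 0.30 as the mean of 3 probes that disagreed in sign (-0.24 to 0.64), and Socs3, the feedback inhibitor of the pathway, by -0.22. The higher genes of the list were thus ligands, while no receptor passed 2-fold. The 17 measured chemokine genes had a median of 0.44 and 13 of them lay above 0, but none reached 2-fold. The nearest was Ccl7 at 0.97, followed by Ccl2 at 0.90, both attractants of monocytes. Among 25 measured targets of NF-kB and TNF the median was 0.12, with 1 gene 2-fold higher (Il1a).

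The promoter windows of F3, Csf2 and Il11 are shown. F3 had the lowest difference of all. Csf2 and Il11 were the cytokine genes for which the array labelled cortisol stood farthest above the others. Il1a and Il1f6 also stood apart on that array, by less, and their windows are not shown. The windows shown hold the 250 bases before the transcription start in RefSeq (build GRCm38.p6), 5′ to 3′ on the strand of the gene. Capitals mark matches, on either strand, to the AP-1 motif TGANTCA and the TEAD motif CATTCC.
F3, chr3:121723287-121723536, plus strand: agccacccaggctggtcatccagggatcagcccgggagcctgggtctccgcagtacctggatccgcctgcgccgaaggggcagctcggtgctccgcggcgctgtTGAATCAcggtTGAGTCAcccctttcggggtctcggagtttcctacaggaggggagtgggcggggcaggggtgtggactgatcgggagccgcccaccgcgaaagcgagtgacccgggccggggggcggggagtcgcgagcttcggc
Csf2, chr11:54249900-54250149, minus strand: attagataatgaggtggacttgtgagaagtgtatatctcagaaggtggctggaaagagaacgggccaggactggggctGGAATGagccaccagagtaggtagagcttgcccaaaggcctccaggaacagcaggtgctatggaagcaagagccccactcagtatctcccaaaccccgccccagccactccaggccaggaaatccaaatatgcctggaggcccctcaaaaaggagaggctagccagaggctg
Il11, chr7:4778142-4778391, minus strand: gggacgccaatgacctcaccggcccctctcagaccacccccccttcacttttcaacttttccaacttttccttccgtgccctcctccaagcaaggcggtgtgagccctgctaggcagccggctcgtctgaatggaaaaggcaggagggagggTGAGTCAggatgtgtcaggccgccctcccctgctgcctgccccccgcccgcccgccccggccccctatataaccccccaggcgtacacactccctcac

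The F3 window holds 2 AP-1 matches, beginning 146 and 135 bases before the start, the Il11 window 1 AP-1 match beginning 98 bases before it, and the Csf2 window 1 TEAD match beginning 172 bases before it. Il11 has a further window in the table with no match. The window of Nr1d1, a higher gene given below, was searched in the same way, held no match and is not shown. AP-1 letters were present in 6 of 35 higher genes with a window in the table (17.1%), in 4 of the lower genes with a window (3.81%), in 5.59% of the 8812 measured genes with a window and in 7.82% of all 27025 genes of the table. TEAD letters were present in 11 of the 35 higher genes (31.4%), 10 of the lower genes (9.52%), 12.9% of measured genes and 14.4% of the table. The glucocorticoid receptor half-site AGAACA was found in 8 higher (22.9%) and 15 lower genes (14.3%), against 13.0% of measured genes and 18.2% of the table, and the full palindromic element, which contains the half-site, in none of the higher or lower genes and in 1 measured gene. These are matches of letters in a short window, chosen for display after the expression values had been seen.

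Other higher genes were of mixed function. Slco4a1, an organic anion transporter, had log2 ratios of -2.96 (untreated), -0.54 (serotonin), -0.45 (cortisol-serotonin) and -0.95 (cortisol), a difference of 2.01 (4.03-fold, error 0.41). Metrn, a secreted factor of glia, went from -1.15 on the untreated array to 0.39 on that labelled cortisol, with 0.28 and 0.12 on the arrays labelled serotonin and cortisol-serotonin, and Ovgp1 from 0.72 to 2.22, with 2.11 and 2.15. For Slco4a1, Metrn and Ovgp1 it was the untreated array that lay at least 2-fold from each of the other 3. Nr1d1, which encodes the clock repressor REV-ERB alpha, had ratios of 0.90, 1.89, 1.84 and 2.42 on the arrays labelled untreated, serotonin, cortisol-serotonin and cortisol, a difference of 1.52 (error 0.43). Pim1, a survival kinase, differed by 1.48, Tob2, an anti-proliferative protein, by 1.48 and Plk3, a stress-responsive kinase, by 1.38. Flrt3, an adhesion protein, differed by 1.53, and its 3 probes gave 1.33 to 1.69. The largest difference of all, 2.10 for the hair keratin-associated gene Krtap19-4, came from 1 dim spot with a Cy5 signal of 124 units on the untreated array and 558 on that labelled cortisol, and had an error of 0.49.

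**Figure D2:**
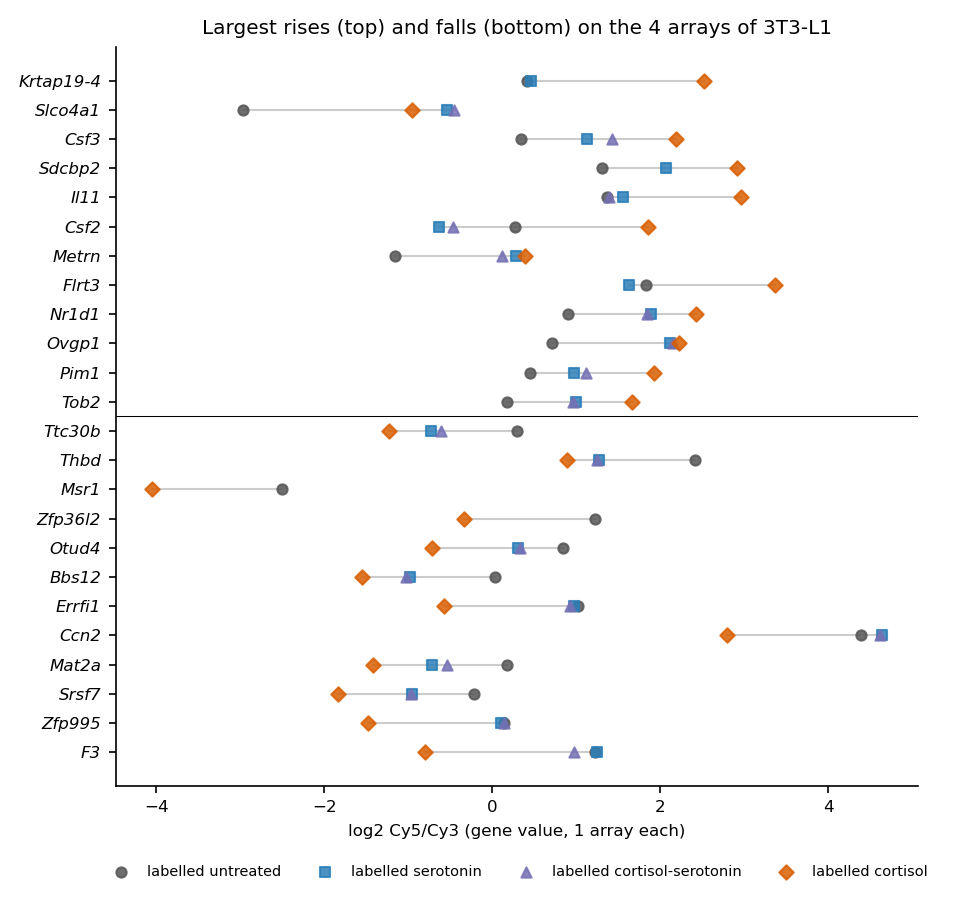
Log2 ratio of Cy5 to Cy3 (horizontal axis) of the 12 named genes with the highest and the 12 with the lowest differences, 1 point per array of 3T3-L1, with a line from the lowest to the highest array. For Csf2, Il11 and Flrt3 at the top and F3, Ccn2, Errfi1 and Zfp995 at the bottom the array labelled cortisol lies away from the others, while for Slco4a1, Metrn, Ovgp1 and Bbs12 the untreated array does. Arrays on which a gene was not measured have no point.

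The coagulation list held the gene with the lowest difference. F3 encodes tissue factor, the membrane protein that starts clotting. Its log2 ratios were 1.22 (untreated), 1.25 (serotonin), 0.97 (cortisol-serotonin) and -0.80 (cortisol), a difference of -2.02 (4.06-fold lower, error 0.24), and its 2 probes gave -2.25 and -1.79. Thbd, thrombomodulin, which turns thrombin to an anticoagulant role, had ratios of 2.41, 1.27, 1.25 and 0.89 in that order, a difference of -1.52 (error 0.38). Unlike F3, it was lower on all hormone arrays. Thbs1, the matrix and platelet protein thrombospondin, differed by -1.45 (error 0.31) and Plau, the urokinase activator, by -1.05 (error 0.69). Plau had ratios of -3.87 (untreated), -5.65 (serotonin), -5.23 (cortisol-serotonin) and -4.91 (cortisol). For Thbd and Plau it was the untreated array that lay at least 2-fold above each other array. In all, 5 of 16 measured genes of coagulation and fibrinolysis were at least 2-fold lower, none was higher, and 14 lay below 0, with a median of -0.46, where 1.22% of all genes were lower and 0.423% higher. On the arrays labelled serotonin and cortisol-serotonin, against the same untreated array, the medians of this list were -0.18 and -0.25, with 3 and 2 genes 2-fold lower, where 0.726% and 0.638% of all genes were.

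Among genes of the matrix and of mechanical signalling, Ccn2 had ratios of 4.39 (untreated), 4.63 (serotonin), 4.62 (cortisol-serotonin) and 2.79 (cortisol), a difference of -1.60 (3.03-fold lower, error 0.59). Only the array labelled cortisol was low. Amotl2, a partner of the transcriptional activator YAP, differed by -1.11 (error 0.36), and Ccn1, a relative of Ccn2, by -0.44 (error 0.43). Of 19 measured CCN genes and YAP targets, Ccn2 and Amotl2 were 2-fold lower and none was higher, beside 1.22% and 0.423% of all genes, with a median of -0.22. Genes of collagens and other matrix proteins (32 measured) and of actin and its regulators (18 measured) held no gene past 2-fold as the mean of its probes. Single probes did pass it, and probes of a gene could disagree. Loxl2 had probes at -1.03 and -0.39, Vcl at -1.11 and -0.30, and the 5 probes of Tpm1 ran from -0.69 to 1.29.

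Splicing factors were lower as a family. The SR proteins bind exon enhancers and recruit the splicing machinery, and their genes hold exons whose inclusion leads to decay of the mRNA. All 10 measured members lay below 0, with a median of -0.84 and 4 at least 2-fold lower, beside 6697 of 13718 genes below 0, a median of 0.0096 and 1.22% lower over all genes. Srsf7 had log2 ratios of -0.22 (untreated), -0.96 (serotonin), -0.97 (cortisol-serotonin) and -1.83 (cortisol), a difference of -1.62 (3.06-fold lower, error 0.27), with -1.81 and -1.42 from its 2 probes. Srsf3 had ratios of 0.02, -0.46, -0.42 and -1.26, a difference of -1.28 (error 0.18) over 3 probes. The array labelled cortisol was lowest and the untreated array highest for both, with the other 2 arrays between them. Tra2a differed by -1.15 and Srsf2 by -1.03, while Srsf1 (-0.85) and Srsf10 (-0.83) stayed under 2-fold, and the smallest difference was -0.16 for Srsf4. The probes of Srsf6 disagreed in size, at -0.02 and -1.11. Against the same untreated array the list median was -0.43 on the array labelled serotonin and -0.30 on that labelled cortisol-serotonin, and no member was 2-fold lower on either. In the comparison of cortisol-serotonin with serotonin, which uses neither of the 2 arrays, the median was 0.06, and in RAW 264.7 with cortisol against untreated it was -0.08.

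The hnRNPs, which coat nuclear RNA, and the splicing kinases had a median of -0.36 over 24 genes, 2 of them 2-fold lower (Hnrnpm at -1.20 and Hnrnpf at -1.08), beside the same 1.22%. Of 9 measured nuclear long RNAs and snoRNA hosts, 8 lay below 0 with a median of -0.56 and none past 2-fold, the lowest being Snhg5 at -0.99. Mat2a, the enzyme that makes S-adenosylmethionine, had ratios of 0.18 (untreated), -0.72 (serotonin), -0.55 (cortisol-serotonin) and -1.42 (cortisol), a difference of -1.60 (error 0.23), and both its probes were more than 2-fold lower. Eif4a2, a translation initiation helicase that was on the list of reference genes, had ratios of 0.23, 0.15, 0.24 and -0.97, a difference of -1.20 (error 0.22). Other reference genes moved less: Hprt differed by -0.64, Tbp by -0.41 and Gusb by 0.45.

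Zinc finger genes were frequent among the lower genes, a family that was picked out after the values had been seen. Of 255 measured genes named Zfp, 19 were at least 2-fold lower (7.45%, against 1.22% of all genes), none was higher, and 203 lay below 0. Their median was -0.34 and, relative to the median of all genes, -0.49 with median centring, while the value as such with that setting was 0.10. The lowest, Zfp995, had ratios of 0.14 (untreated), 0.10 (serotonin), 0.13 (cortisol-serotonin) and -1.47 (cortisol), a difference of -1.62 (error 0.34). The related predicted genes Gm14325, Gm14326, Gm14391 and Gm14393 were all 2-fold lower. Of the lower Zfp genes and these 4, 20 had a place in the RefSeq table, and 7 of the 20 lie on chromosome 2. All 4 predicted genes are among these 7, so their choice fixed much of this count. The share of all measured Zfp genes on chromosome 2 was not determined. Zfp760, Zfp229, Zfp995 and Zfp943 lie near each other on chromosome 17. Neighbours in these clusters have near-identical copies, so that a probe may read more than 1 gene, and their values are not independent. Against the same untreated array, the median of the Zfp genes was -0.26 on the array labelled serotonin and -0.22 on that labelled cortisol-serotonin.

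**Figure D3:**
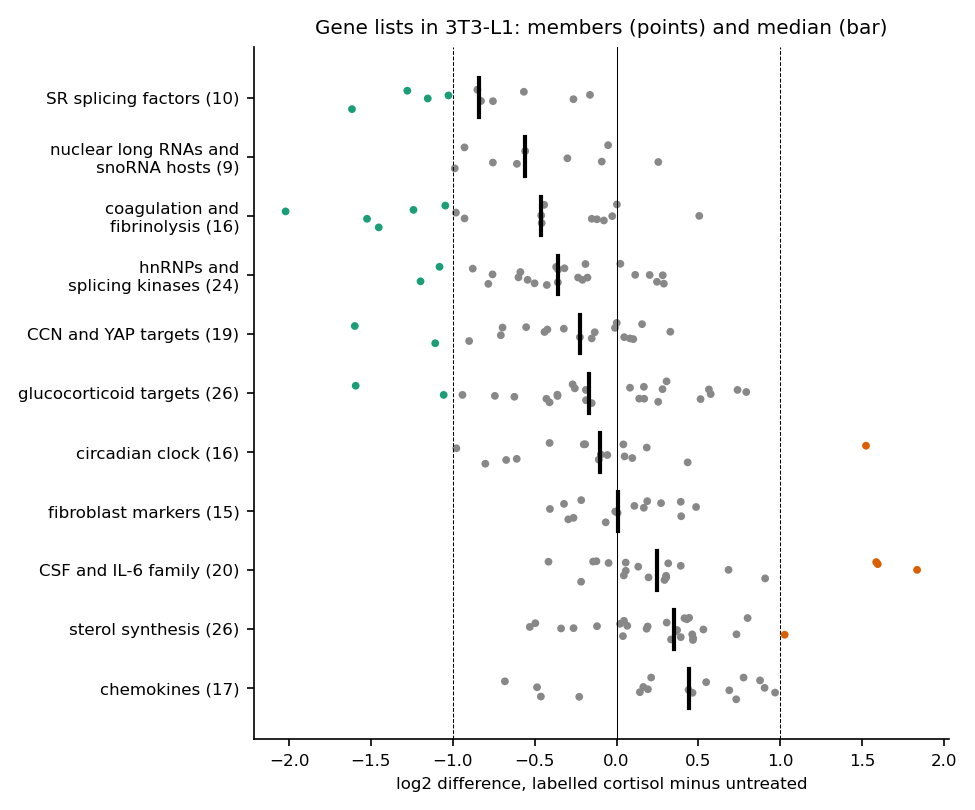
Difference between the array labelled cortisol and the untreated array of 3T3-L1 on the log2 scale (horizontal axis), 1 point per measured gene of each list, with the list's median as a bar and the number measured in brackets. Dashed lines mark 2-fold. All 10 SR splicing factors lie left of 0 with a median of -0.84, and the 3 points past 2-fold in the CSF and IL-6 family are Csf2, Csf3 and Il11.

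Established targets of the glucocorticoid receptor were split on the array labelled cortisol. Of 30 listed genes 26 were measured, 12 lay above 0 and 14 below, none was 2-fold higher, 2 were 2-fold lower, and the median was -0.17, or 0.05 with median centring after the shift of all genes was taken off. Against the same untreated array, 6 of 26 were 2-fold higher on the array labelled serotonin (median 0.40, with 0.514% of all genes higher) and 7 of 24 on that labelled cortisol-serotonin (median 0.59, with 0.761% of all genes higher). Fkbp5, which encodes a chaperone of the receptor, had log2 ratios of -0.85 (untreated), 0.47 (serotonin), 0.60 (cortisol-serotonin) and -0.71 (cortisol), so the array labelled cortisol lay beside the untreated one with a difference of 0.14 (error 0.30). Zbtb16, a transcriptional repressor, showed the same split with 0.67, 2.61, 2.63 and 0.48. Tsc22d3, the glucocorticoid-induced leucine zipper, had -0.22, 0.19, 0.55 and -1.27, and was 2.08-fold lower on the array labelled cortisol than on the untreated array (difference -1.06, error 0.31). Sgk1, a kinase of ion transport, followed with a difference of -0.74 (error 0.36), and Per1, a clock repressor, with -0.41 (error 0.37). Errfi1, an inhibitor of the EGF receptor, had 1.02, 0.97, 0.93 and -0.58, a difference of -1.59 (error 0.31). The highest members on the array labelled cortisol were Ddit4, an inhibitor of mTOR signalling, at 0.79 (1.73-fold, error 0.29) and Pdk4, a kinase that restrains glucose oxidation, at 0.74 (1.67-fold, error 0.32). Ddit4 had log2 ratios of -0.27 (untreated), 0.50 (serotonin), -0.30 (cortisol-serotonin) and 0.52 (cortisol), and differed by 0.62 between cortisol and untreated in RAW 264.7. Pdk4 had 0.26, 1.68, 1.79 and 1.00. Fkbp5, Zbtb16 and Tsc22d3 thus had their highest levels on the arrays labelled serotonin or cortisol-serotonin. Ddit4 was level on the arrays labelled cortisol and serotonin, 0.03 apart, which is well under its error. Whether the arrays carry the treatments their labels name was not tested.

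**Figure D4:**
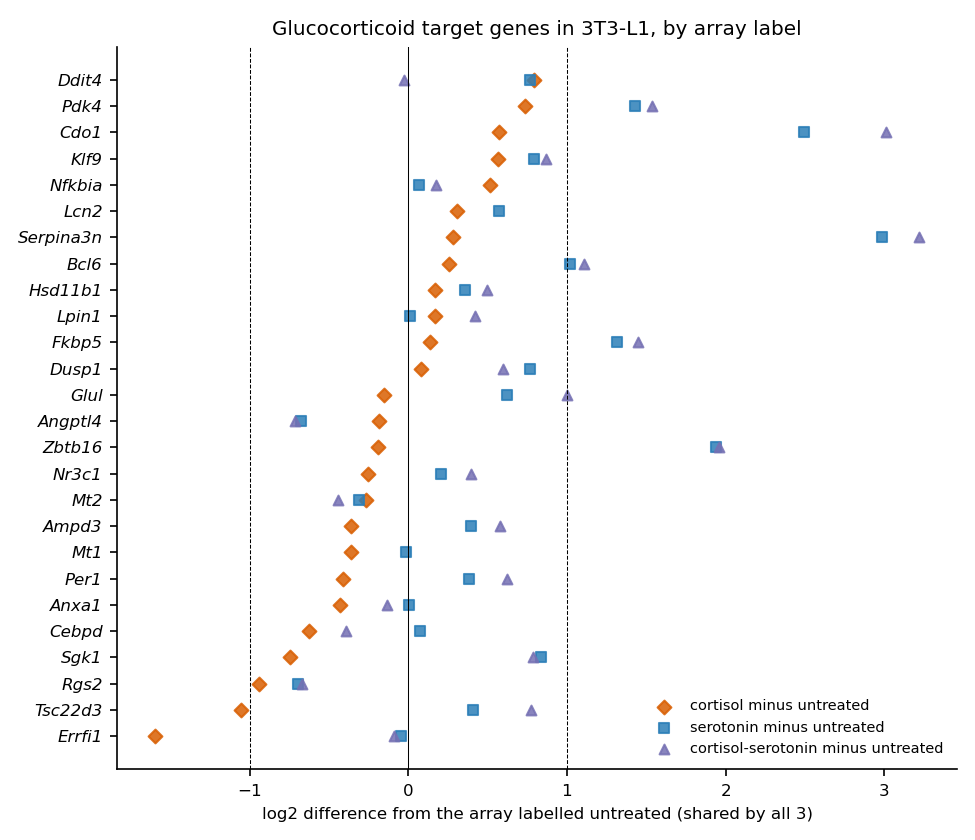
Differences of the arrays labelled cortisol, serotonin and cortisol-serotonin from the untreated array, which all 3 share, for the 26 measured glucocorticoid target genes in 3T3-L1 (horizontal axis, log2 scale, 1 array each). Dashed lines mark 2-fold. No gene lies past the right dashed line on the array labelled cortisol, whereas Serpina3n, Cdo1, Zbtb16, Pdk4 and Fkbp5 do on the other arrays.

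Adipocyte genes differed little. None of 12 measured genes passed 2-fold in either direction, with a median of 0.12. Fabp4, the fatty acid carrier aP2, had log2 ratios of 0.05 (untreated), 2.29 (serotonin), 2.51 (cortisol-serotonin) and 0.05 (cortisol), and Pparg, the nuclear receptor that drives fat cell formation, had 0.68, 1.15, 1.29 and 0.92. Lpl, the lipase that frees fatty acids from lipoproteins, differed by -0.03 (probes at -0.19 and 0.14). Adipoq and Aqp7 were dim in Cy5 on both arrays. Among 26 measured genes of sterol synthesis the median was 0.35 and 21 lay above 0. Nr1d1 was the single clock gene of 16 measured past 2-fold, and the median of the clock list was -0.10.

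Of the inflammatory genes that the study's text names, only some were followed here. Apart from Csf2, Csf3 and Il1a given above, these differed by less than 2-fold. Il1f6, which the study's supplement lists for cortisol-serotonin, was past 2-fold and is given further on. The scavenger receptor gene Olr1 differed by -0.25 (error 0.42), Il13ra1 by -0.23 (error 0.38), the antimicrobial peptide gene Camp by 0.03 (error 0.43), Tlr6 by -0.60 (error 0.35) and Tlr13 by 0.0028 (error 0.66). The chemokine gene Ccl4 differed by -0.46 with an error of 0.82. Ccl4 had log2 ratios of -5.17 and -5.64 on the untreated array and that labelled cortisol, far below the reference.

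Markers of the cells were checked on the same arrays. Of 31 macrophage markers, 21 had Cy5 signal well above background on the untreated array and 24 on that labelled cortisol, with summed Cy5 signals of 12421 and 11167 units, against 139104 to 189194 on the 4 arrays of RAW 264.7. Their median log2 ratios were -2.77 and -2.93, and 0.95 to 1.20 in RAW 264.7. Adgre1, which encodes the macrophage antigen F4/80, was not above background on any array of 3T3-L1, whereas Csf1r, Ptprc and Tyrobp were. The difference of the list had a median of -0.14, which was 0.14 both with the processed signals of the scanner software and with the Cy5 channel alone. Msr1, a macrophage scavenger receptor, was the only 2-fold member, at -1.55 (error 0.67) from Cy5 signals of 217 and 71 units. Of 24 fibroblast markers, 17 and 20 were above background, with summed signals of 194132 and 172881 units against 56141 to 111730 in RAW 264.7, and the 15 measured had a median difference of 0.0063. The part of macrophage RNA in the differences above was not tested.

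The array on which a gene was unusual was then sought over the 12729 genes that every 3T3-L1 array measured. The array labelled cortisol lay at least 2-fold above each of the other 3 for 12 genes (0.0943%) and below for 38 (0.299%). For the untreated array the counts were 17 above and 8 below, and for the array labelled serotonin 2 and that labelled cortisol-serotonin 4 in all. The last 2 arrays correlated at 0.983 across genes, so that neither could often lie far from the other, while the 2 arrays compared here correlated at 0.901 and lay furthest apart of any pair. Above on the array labelled cortisol were Csf2, Il11 and Il1a, the potassium channel gene Kcnk10, the Wnt signal gene Dvl3, the aggrecanase gene Adamts4, the lymphocyte homing receptor gene Ccr7, the cytokine gene Il1f6 and the transcription factor gene Tbx3. Below were F3, Ccn2, Zfp995, Errfi1, the kinase anchor gene Akap12 (ratios of 1.54, 1.71, 1.64 and 0.09 on the arrays labelled untreated, serotonin, cortisol-serotonin and cortisol), the mitotic inhibitor gene Wee1 (-0.29, 0.19, 0.38 and -1.68), the chaperone gene Dnajb4 and the caveolin gene Cav2. Of the 51 higher genes measured on all 4 arrays, 12 stood apart on the array labelled cortisol, 8 on the untreated array and 31 on neither. Of the 161 lower genes the counts were 38, 17 and 106.

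**Figure D5:**
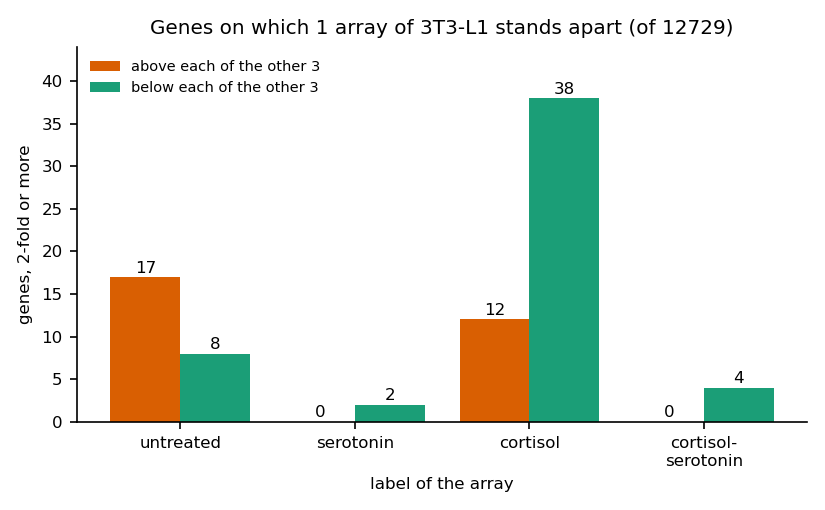
Number of genes (vertical axis) for which 1 array of 3T3-L1 lay at least 2-fold above, or at least 2-fold below, each of the other 3, by the label of the array, among 12729 genes. The array labelled cortisol has 12 above and 38 below, the untreated array 17 above and 8 below.

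The same genes were followed into comparisons that share neither array. Between cortisol-serotonin and serotonin in 3T3-L1, the 51 higher genes measured there had a median difference of 0.035 and the 161 lower genes 0.030, against 0.017 for all genes. None was 2-fold changed in either direction, where 4 genes (0.0314%) were higher and 8 (0.0628%) lower among all 12729. Between cortisol and untreated in RAW 264.7, 36 higher genes had a median of 0.020 and 139 lower genes -0.013, again with none past 2-fold, where 4 of 11900 genes were in each direction (0.0336%). Against the untreated array that this comparison uses too, the higher genes had a median of 0.54 on the array labelled serotonin and 0.61 on that labelled cortisol-serotonin, and the lower genes -0.51 and -0.48.

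The only test that the design allowed was an additive limma model over all 8 arrays, in which the cortisol effect in 3T3-L1 is the average of the comparison above and that of cortisol-serotonin with serotonin. Its spread rests on 2 residual degrees of freedom. Without replicates these measure how far the hormones depart from adding up in each line, and not the spread between cultures. A count of 0 genes therefore does not show that cortisol had no effect. Of 10995 genes measured on all arrays, 0 passed an adjusted p of 0.05 (Benjamini-Hochberg), the smallest adjusted p being 0.895, and 308 (2.8%) had an unadjusted p under 0.05, 139 of them higher and 169 lower. F3, here from the 1 probe measured on all 8 arrays (-2.25 between the 2 arrays), had an effect of -1.27 ± 0.40 (SE, limma adjusted p = 0.895), Csf3 1.06 ± 0.32 and Srsf7 -0.81 ± 0.32, with the same adjusted p. Of the higher and lower genes above, 37 and 127 were in the model, with median effects of 0.62 and -0.57, which include the comparison that chose them. The difference of the cortisol effect between 3T3-L1 and RAW 264.7 passed for 0 genes as well (280 at an unadjusted p under 0.05).

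Finally, genes with Cy5 signal on 1 of the 2 arrays had only a bound. The bound takes the dim array at its own signal or at the lowest signal well above background there, whichever is higher. It reached 2-fold for 193 of the 1130 genes seen on the array labelled cortisol and for 118 of the 758 seen on the untreated array. Fbxw15, an F-box protein gene, was at least 6.29-fold higher on the array labelled cortisol, the homeobox gene Pitx3 at least 4.75-fold and Havcr1, a phosphatidylserine receptor gene, at least 4.35-fold. The metalloproteinase gene Adamts18 was at least 3.86-fold lower, the death-associated kinase gene Dapk1 at least 3.57-fold and the zinc finger gene Zfp808 at least 3.29-fold. These are signals near background. The paper's supplement lists Pitx3 among genes raised by serotonin but not by cortisol.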

How the data were processed

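Per the labels, Agilent Feature Extraction 10.5.1.1 made the 8 scanner files. The authors deposited for each spot the median signal and background intensity of Cy5 and Cy3, processed signals, and a log10 ratio of Cy5 to Cy3 with its error and p-value (this p-value, left aside here, sets a sample against the reference). A deposited table of the series held the same log10 ratios within 0.005 for 43020 spots of each array.

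Background was corrected with normexp (offset 50) and ratios by loess within arrays in limma 3.58.1 (R 4.3.3). Spots marked as outliers and control spots were left out. Probes were named through RefSeq (GRCm38.p6, for names and promoter windows): 27508 of 39429 probes (69.8%) matched. A gene's value averages the probes that passed the filter, that is, were well above background in Cy5 and Cy3 in at least 0.5 of their spots.

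Each cell line was on 1 slide, so position on the slide and treatment cannot be told apart. In 3T3-L1 the median Cy5 signal of an array was 62 to 79 units, over backgrounds of 26.5 to 27, and no spot was saturated. Of 233 probes with 5 or more spots, the SD of the difference between arrays had a median of 0.059, and medians of 32 blocks of the array lay between -0.026 and 0.045. The number of arrays limits the precision.

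The members, 34 gene lists and the choice of genes were made with earlier results of these data known. The genes named are the 12 highest and 12 lowest differences among RefSeq-named genes, with predicted genes left out. These were 2-fold here and at least 1.5-fold the same way with the processed signals. Also named are at most 6 members per list plus members shown on every array. Further ones are some, not all, of the 6 farthest genes in each direction on 1 array only. The 6 farthest in each direction standing apart are named, and so are genes that the study's text names for cortisol. The Zfp and Gm143 families, Ccr7, Il1f6, Tbx3, Dnajb4 and Cav2 are outside these rules and were chosen after their values were seen. Some genes are not reported here.

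On simulated scanner files with 50 genes at each of 4 changes, 90.0% of log2 rises of 1.5 and 76.0% of falls of 1.5 were counted, and none of 14254 unchanged genes. The simulated array was a copy of the untreated one with added Cy5 noise and the same Cy3 signal. It thus lacks the spread between separate cultures and arrays, and gives no rate of false calls for the real pair. On a simulated matrix of 10995 genes the additive model recovered 99.5% of 200 genes changed by 3 on the log2 scale and called 11 others. The largest rise between the 2 real arrays was 2.10, so this recovery does not apply to changes of the size seen here.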

Additional observations from a re-analysis of the deposited data

How the results depend on the processing

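The 58 higher and 168 lower genes became 168 and 436 with the processed signals of Feature Extraction, 104 and 244 with a normexp offset of 10, 112 and 201 with the Cy5 channel alone, and 2570 and 5 with arrays centred on their median instead of loess, where all genes had a median of 0.60. Relative to that median (an alternative chosen after seeing the data), median centring gave 78 and 191. Without background correction the counts were 52 and 247, without the filter on dim probes 70 and 166, with probes measured on all 4 arrays 52 and 162, with the brightest probe of a gene 60 and 194, and with outlier spots kept 57 and 173. The 58 and 168 genes kept their sign in each of these settings in which they were measured, except that 57 and 165 did with the Cy5 channel alone, where, among others, Kcnh3 went from 1.14 to -0.50, Olfr319 from -1.34 to 0.37 and Scara5 from -1.13 to 0.015. With the processed signals 54 and 165 of them were still 2-fold, and with the Cy5 channel alone 39 and 123. With the processed signals, 402 genes seen only with the cortisol label and 336 seen only on the untreated array had a bound of 2-fold or more, and the array labelled cortisol stood apart above for 18 genes and below for 90. The cause of these shifts was not tested. The additive model gave 0 genes with the processed signals, with median centring and without the filter. Of the 2-fold genes chosen by the naming rule, none had the opposite sign under any alternative. Genes under 2-fold did change sign, among them Camp and Lpl with the Cy5 channel alone and Sgk1, Hprt and Tbp with median centring. No paired analysis was possible because each group has 1 array, and for the same reason no replicate could be left out.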
